A study of Mus musculus with 9 samples.

Results

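Formative and primed epiblast markers were taken from the RNA-seq tables by gene symbol, and 7 of the 56691 genes listed carried one of these symbols: Fgf5 (ENSMUSG00000029337), Otx2 (ENSMUSG00000021848), Pou3f1 (ENSMUSG00000090125), Foxd3 (ENSMUSG00000067261), Sox3 (ENSMUSG00000045179), Zic2 (ENSMUSG00000061524) and Sall2 (ENSMUSG00000049532). Each symbol belonged to 1 identifier, all 7 genes were present in all 9 tables, and all 7 passed the filter on low counts that left 16903 genes for testing. The cells were BVSC PSCs, mouse pluripotent stem cells in which mVenus reports Blimp1 (BV) and CFP reports Stella, and they also held the DOX-inducible p20 vector, either with the Nrf1 cDNA (NRF1 OE) or empty (Ctrl). They were differentiated as embryoid bodies (EBs) with DOX at 1.5 μg/mL from day 2 to day 5 in both arms, and BV+ cells (PGCLCs) and BV- cells (somatic cells) were separated by sorting. There were 2 libraries of BV+ cells with NRF1 OE, 2 of BV+ cells with Ctrl, 3 of BV- cells with NRF1 OE and 2 of BV- cells with Ctrl. All libraries derived from the single BVSC reporter line, so the Ctrl libraries carried the reporters, the empty vector and the DOX treatment as well.

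Pluripotent cells of the mouse embryo pass from a naive state, through a formative state in which they can respond to germ cell-inducing signals, to a primed state close to gastrulation. Otx2 and Pou5f1 act together on enhancers during the exit from the naive state, and Otx2 is known to be shut off when cells enter the germ line. Fgf5 encodes a secreted ligand whose transcript marks the post-implantation epiblast, Pou3f1 (Oct6) and Foxd3 encode a POU and a forkhead transcription factor of that tissue, Sox3 and Zic2 encode factors shared by the epiblast and the early neural plate, and Sall2 encodes a zinc finger factor of the spalt family.

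NRF1 binds DNA at a GC-rich palindrome, so the 250 bases upstream of each annotated start were searched on both strands for GCGCATGC, and for GCGCANGC, which includes it. RefSeq promoters (build GRCm38.p6) were at hand for 4 of the 7 genes, as 8 promoters of Fgf5, Foxd3, Otx2 and Sall2. GCGCATGC was in 0 of these 8 and in 2.26% of the 32851 RefSeq promoters, and GCGCANGC was in 1 of the 8 and in 8.3% of all promoters. The match lay in 1 of the 4 Otx2 promoters and began 8 bases before the start, and the other 7 promoters held neither run of letters in this window. Fgf5 and Foxd3 had GC-rich promoters (70.8% and 65.6% GC, with 24 and 21 CpG), against a median of 52.4% GC and 6 CpG over all promoters. The Otx2 promoter with the match and the pair of Sall2 promoters are given because Otx2 and Sall2 were the genes that passed the test between BV+ and BV- cells below. Each is written 5′ to 3′ on the gene's strand, and capitals mark the match to GCGCANGC.
Otx2, chr14:48665110-48665359, minus strand: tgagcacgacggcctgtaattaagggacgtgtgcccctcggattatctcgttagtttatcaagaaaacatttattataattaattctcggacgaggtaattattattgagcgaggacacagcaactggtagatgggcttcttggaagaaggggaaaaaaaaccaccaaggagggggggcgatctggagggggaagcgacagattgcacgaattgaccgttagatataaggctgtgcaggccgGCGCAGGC
Sall2, chr14:52328671-52328920, minus strand: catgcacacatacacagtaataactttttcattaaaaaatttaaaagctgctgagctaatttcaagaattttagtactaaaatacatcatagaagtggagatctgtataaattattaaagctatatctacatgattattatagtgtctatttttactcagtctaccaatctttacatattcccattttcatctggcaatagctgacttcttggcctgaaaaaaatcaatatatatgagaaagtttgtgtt
Sall2, chr14:52316324-52316573, minus strand: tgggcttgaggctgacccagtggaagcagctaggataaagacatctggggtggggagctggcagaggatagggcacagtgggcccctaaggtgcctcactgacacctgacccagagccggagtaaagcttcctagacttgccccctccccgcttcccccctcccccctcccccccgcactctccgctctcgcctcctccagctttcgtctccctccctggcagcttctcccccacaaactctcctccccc
The upstream Sall2 promoter was AT-rich (28.0% GC, 0 CpG) and the downstream one GC-rich (64.4% GC, 6 CpG). The tables count reads per gene, so use of one start or the other was not measured.

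Total counts lay between 13702162 and 19625460 per library. The paper's methods mention biological duplicates or replicates for RNA-seq, but nothing in the labels says that libraries of a group came from separate cultures. The p-values therefore measure the spread between these libraries, which may be partly technical. Nrf1, the overexpressed gene, did not pass the test for NRF1 OE against Ctrl, although the NRF1 OE libraries lay above the Ctrl libraries in both populations. Nrf1 was at 95.7 and 99.4 CPM (TMM-scaled counts relative to library size) in the BV+ libraries labelled NRF1 OE and at 91.1 and 90.4 CPM with Ctrl, and at 119, 122 and 126 CPM against 99.1 and 105 CPM in BV- cells (adjusted p = 0.489 and 0.0718). With NRF1 OE it was lower in BV+ than in BV- cells (log2 fold change -0.33, adjusted p = 0.0431). Prdm1, which encodes Blimp1, had group means of 60.1 CPM in BV+ and 58.0 CPM in BV- cells with Ctrl (log2 fold change 0.054, adjusted p = 1.0). Of 7 PGC marker genes, all detected, edgeR called 0 between BV+ and BV- cells with Ctrl (2 at an unadjusted p under 0.05, and 0 and 1 by DESeq2). In that comparison 1314 of the 16903 genes tested had an unadjusted p under 0.05 (edgeR). With NRF1 OE, Nanos3 (log2 fold change -1.04, adjusted p = 0.0035), Dppa3 (-0.65, adjusted p = 0.00536) and Tfap2c (-0.43, adjusted p = 0.0461) were lower in BV+ cells and none was higher. Against Ctrl, NRF1 OE libraries had more Dppa3 in BV+ cells (0.64, adjusted p = 0.0252), and more Nanos3 (1.02), Dppa3 (0.84), Dnd1 (0.82) and Tfap2c (0.43) in BV- cells (adjusted p from 0.0317 to 0.045). With GC and length offsets, defined below, Nanos3 (0.55, adjusted p = 0.115) and Tfap2c (0.20, adjusted p = 0.278) in BV- cells and Tfap2c between populations (-0.32, adjusted p = 0.0564) lost their calls, and Dnd1 was at 0.53. The directions below are therefore those of the libraries as labelled. Libraries also differed in how level followed transcript GC content: Spearman's rho across 14253 genes, which are not independent, lay between -0.561 and -0.467 in the 4 Ctrl libraries and between 0.00674 and 0.666 in the 5 NRF1 OE libraries. As every NRF1 OE library lay above every Ctrl library, a technical trend and a difference between the arms in GC-rich genes cannot be told apart. Offsets fitted to the trend would remove either. Values after removing the dependence of each library on GC content and length (GC and length offsets) are given for the markers where they moved. Pou3f1, Foxd3, Sox3 and Zic2 had transcripts of 63.9%, 65.1%, 66.4% and 59.9% GC, and Fgf5, Otx2 and Sall2 of 47.0%, 46.8% and 53.2%. For other genes they are given where they ended a printed call, turned its direction or moved it by over 1.5 times. Calls that the offsets made among other genes are not all given. Examples between BV+ and BV- cells are Fst with Ctrl (0.90, adjusted p = 0.0296) and the PGC marker Kit with NRF1 OE (-0.47, adjusted p = 0.00334).

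All 7 epiblast markers were expressed in every library, with raw counts from 76 (Sox3) to 3409 (Sall2). Genes that overlap their exons had few counts: Otx2os1, on the strand opposite Otx2, had 2 to 8, and Gm49154, on the same strand as Otx2, had 0 to 3. Gm2164, antisense to Pou3f1, had 0 or 1, and for Gm23366, a miRNA gene on the same strand as Foxd3, there were no counts. Reads that the markers may have lost to these overlaps were not measured. On the FPKM scale, which corrects for transcript length, Zic2 was highest with a mean of 35.9 over the 9 libraries (range 30.57 to 39.01). Otx2 followed with 24.4 (15.57 to 29.71), Sall2 with 17.8 (10.91 to 31.97) and Foxd3 with 12.8 (7.72 to 16.75). Pou3f1 had a mean of 6.47 (4.16 to 9.78), Fgf5 of 6.17 (4.37 to 7.85) and Sox3 of 3.99 FPKM (2.34 to 7.08). Zic2 stood above Otx2 in 9 of 9 libraries, whereas the order of other neighbours varied. Otx2 stood above Sall2 in 7 of 9 libraries, Sall2 above Foxd3 in 6, Foxd3 above Pou3f1 in 8, Pou3f1 above Fgf5 in 4 and Fgf5 above Sox3 in 8. In both BV+ libraries with NRF1 OE, Sall2 stood above Otx2, which it did in no other library. Zic2 varied least, with a highest level 1.28 times the lowest, and Sox3 and Sall2 varied most (3.03 and 2.93 times).

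**Figure D1:**
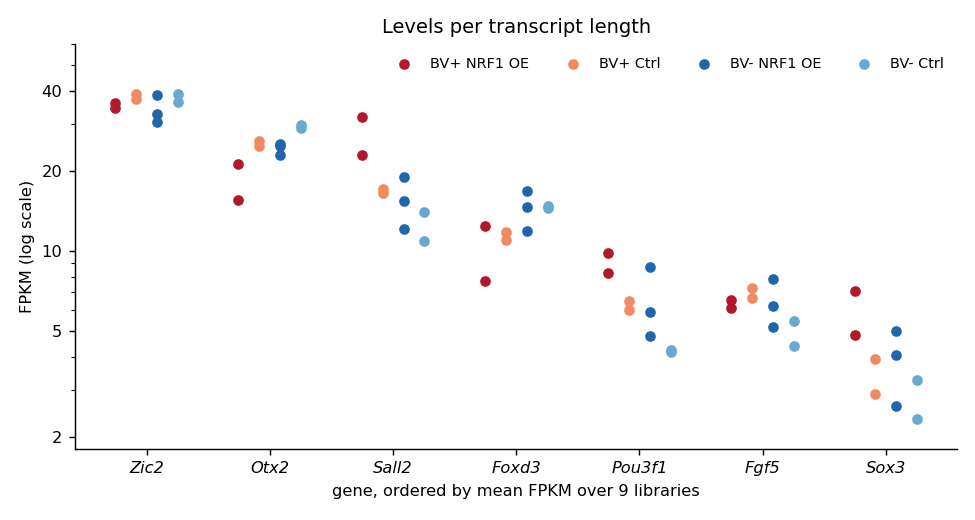
FPKM (log axis) of the 7 epiblast markers, ordered from left to right by the mean over the 9 libraries, with 1 point per library coloured by group. Zic2 lies between 30.57 and 39.01 in all libraries, and the 2 BV+ NRF1 OE points of Sall2 lie above those of the other groups.

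NRF1 OE was compared with Ctrl in BV+ cells to ask whether the epiblast programme differed in PGCLCs. None of the 7 markers was called in either direction at an adjusted p under 0.05 with edgeR. At an unadjusted p under 0.05 there were 5487 of the 16903 genes tested and 4 of 7 markers (Otx2, Pou3f1, Sox3 and Sall2). DESeq2 called 1 of 7 (Sall2) in a fit of all 4 groups and those same 4 in a fit of the BV+ libraries alone. Over all genes it called 2106 and 3443 in these 2 fits. The edgeR count was 4 of 7 without BV- NRF1 OE replicate 2, 1 without BV- NRF1 OE replicate 1 and 0 without BV- NRF1 OE replicate 3. In these fits 4947, 2373 and 673 of the 16903 genes tested were called. In the fit of the 9 libraries 6.24% of all genes tested were called higher and 1.78% lower, a split of 1054 to 301 that became 775 to 513 with upper quartile scaling. The median log2 fold change was -0.08 over the 7 markers and 0.036 over all genes. As these are bulk RNA-seq values, fewer cells expressing a gene and less RNA per cell cannot be told apart.

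Otx2 was at 66.5 and 89.2 CPM in BV+ cells with NRF1 OE and at 103 and 107 CPM with Ctrl. Both NRF1 OE libraries lay below both Ctrl libraries, and they differed more from each other than the Ctrl libraries did. Its log2 fold change was -0.43 (95% interval -0.73 to -0.13, adjusted p = 0.0722), and -0.30 with GC and length offsets. It was -0.23 without BV+ NRF1 OE replicate 1 and -0.60 without replicate 2, and each of these fits left 1 library in that group. Fgf5, the secreted ligand, was at 15.4 and 16.2 CPM with NRF1 OE and 16.3 and 17.7 CPM with Ctrl. These groups were nearly continuous, and the log2 fold change was -0.11 (-0.52 to 0.31, adjusted p = 0.717).

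Sall2 was at 176 and 124 CPM in BV+ cells with NRF1 OE against 91.1 and 87.7 CPM with Ctrl. Both NRF1 OE libraries were higher, and the gap between them was wider than that between the lower of them and Ctrl. The log2 fold change was 0.75 (0.28 to 1.21, adjusted p = 0.052). Replicate 1 of the BV+ NRF1 OE libraries set much of this value, as the log2 fold change was 0.47 without it and 1.03 without replicate 2. Each of these fits left 1 library in that group. Sall2 passed the threshold with GC and length offsets at 0.61 (adjusted p = 0.0288).

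Pou3f1 was at 38.1 and 31.6 CPM with NRF1 OE and 24.4 and 22.4 CPM with Ctrl, and Sox3 at 14.8 and 9.90 CPM against 5.83 and 7.92 CPM. For both genes the NRF1 OE libraries lay above the Ctrl libraries. The log2 fold change of Pou3f1 was 0.57 (0.09 to 1.06, adjusted p = 0.109), and that of Sox3 was 0.84 (0.18 to 1.50, adjusted p = 0.0922). With GC and length offsets these became 0.17 for Pou3f1 (adjusted p = 0.427) and 0.35 for Sox3 (adjusted p = 0.263). Without BV+ NRF1 OE replicate 1 Sox3 was at 0.52, and without replicate 2 it was at 1.15, with 1 library left in that group each time. Sox3 rested on 89 to 287 counts in these 4 libraries, where counting error alone gives a coefficient of variation between 5.9% and 10.6%, and it varied by 28.0% in the BV+ NRF1 OE group.

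Foxd3 and Zic2 were close between the arms without GC and length offsets. Foxd3 was at 18.1 and 28.7 CPM with NRF1 OE and 26.8 and 25.0 CPM with Ctrl, so that the groups overlapped (log2 fold change -0.15, -0.61 to 0.32, adjusted p = 0.645). Zic2 was at 100 and 103 CPM against 109 and 105 CPM (log2 fold change -0.075, -0.36 to 0.21, adjusted p = 0.704). With GC and length offsets the values moved to -0.58 for Foxd3 (adjusted p = 0.104) and -0.44 for Zic2 (adjusted p = 0.055).

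**Figure D2:**
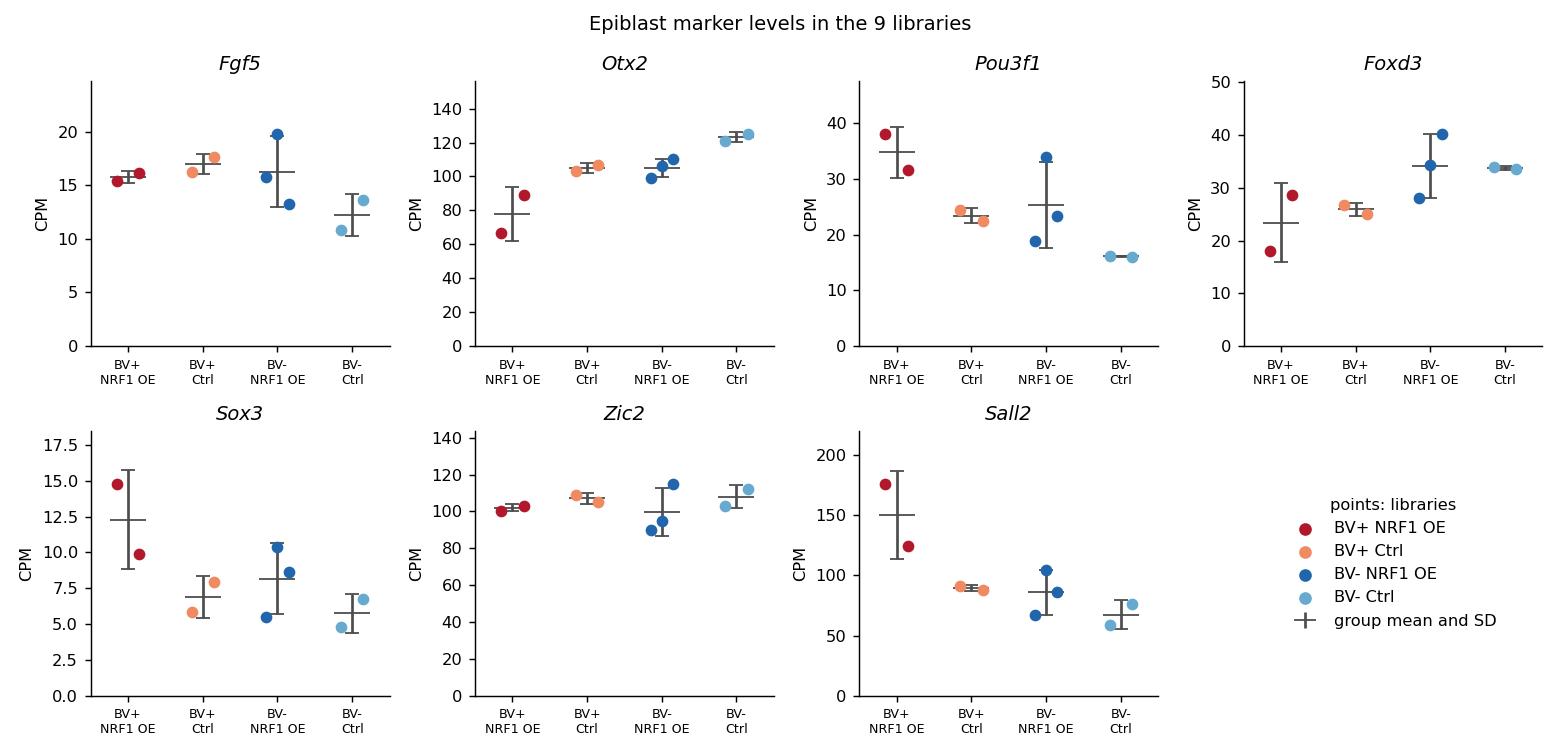
CPM of each epiblast marker in the 9 libraries, with a panel per gene, 1 point per library, and the mean and SD of each group (2 or 3 libraries) as a bar. The group means of Sall2, Sox3 and Pou3f1 are highest, and that of Otx2 lowest, in BV+ cells with NRF1 OE, whereas the groups of Zic2 lie close together.

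In BV- cells, NRF1 OE was likewise compared with Ctrl. None of the 7 markers was called in either direction (edgeR, adjusted p). At an unadjusted p under 0.05 there were 6606 of the 16903 genes tested and 2 of 7 markers (Fgf5 and Pou3f1). DESeq2 called 1 of 7 (Pou3f1) in a fit of all 4 groups and 0 in a fit of the BV- libraries alone, and over all genes 4025 and 2397. Over all genes 10.2% were called higher and 6.98% lower, or 1731 and 1179 genes, and with library size alone the split turned to 1418 higher and 1723 lower. The median log2 fold change was 0.35 over the 7 markers and 0.009 over all genes.

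Pou3f1 was nearest to the threshold in BV- cells. It was at 18.8, 33.9 and 23.3 CPM with NRF1 OE and at 16.2 and 16.0 CPM with Ctrl. All 3 NRF1 OE libraries lay above both Ctrl libraries, but they spread widely, with replicate 2 far above the others. The log2 fold change was 0.65 (0.19 to 1.12, adjusted p = 0.053), 0.36 (adjusted p = 0.105) without BV- NRF1 OE replicate 2 and 0.25 (adjusted p = 0.27) with GC and length offsets.

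The same library, BV- NRF1 OE replicate 2, was the highest of its group for Fgf5, Sox3 and Sall2. Fgf5 was at 15.8, 19.8 and 13.3 CPM with NRF1 OE and 10.8 and 13.6 CPM with Ctrl, with overlapping groups (log2 fold change 0.41, adjusted p = 0.114). Sall2 was at 67.2, 104 and 86.4 CPM against 58.7 and 75.8 CPM (0.35, adjusted p = 0.2). Sox3 was at 5.48, 10.4 and 8.65 CPM against 4.79 and 6.73 CPM, a log2 fold change of 0.49 (adjusted p = 0.229) that became 0.03 with GC and length offsets. Without this library the log2 fold changes were 0.22 for Fgf5, 0.16 for Sall2 and 0.26 for Sox3, and without BV- Ctrl replicate 1 they were 0.25, 0.17 and 0.26. BV- NRF1 OE replicate 2 also had the steepest relation between level and GC content (rho = 0.666).

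Otx2 was at 99.0, 106 and 110 CPM in BV- cells with NRF1 OE and at 121 and 125 CPM with Ctrl. The NRF1 OE libraries all lay below the Ctrl libraries, as in BV+ cells, but the log2 fold change of -0.23 (-0.50 to 0.05) did not pass the test (adjusted p = 0.195). Zic2 was at 89.8, 95.0 and 115 CPM against 103 and 112 CPM, with a log2 fold change of -0.11 (adjusted p = 0.514) that became -0.52 and passed the test with GC and length offsets (adjusted p = 0.0367). Foxd3 was at 28.1, 34.4 and 40.2 CPM against 34.0 and 33.5 CPM. Its log2 fold change of 0.02 (adjusted p = 0.951) took the other sign, at -0.41 (adjusted p = 0.217), with those offsets.

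The effect of NRF1 OE was not shown to differ between the populations for any of the 7 markers. The difference of the 2 log2 fold changes, BV+ minus BV-, ran from -0.51 (95% interval -1.09 to 0.06) for Fgf5 to 0.39 (-0.23 to 1.02) for Sall2, with all adjusted p at 0.936 or above. Over all genes 0.0% were called by edgeR for this difference and 5.51% had an unadjusted p under 0.05, against 0 of the 7 markers. DESeq2 called 23 genes and 0 of the 7 markers. The intervals were wide, reaching from -0.57 to 1.26 for Sox3.

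The study's own threshold, a change of more than 0.58 on the log2 scale at p under 0.05 before adjustment, was passed by Sox3 and Sall2 among the 7 markers in BV+ cells, both higher with NRF1 OE, and by Pou3f1 in BV- cells, also higher. Under that rule 9.78% of all genes were higher and 7.2% lower in BV+ cells, and 5.73% were higher and 10.3% lower in BV- cells. Neither the Sox3 value nor the Pou3f1 value passed the rule with GC and length offsets, at 0.35 and 0.25, while Sall2 was at 0.61.

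**Figure D3:**
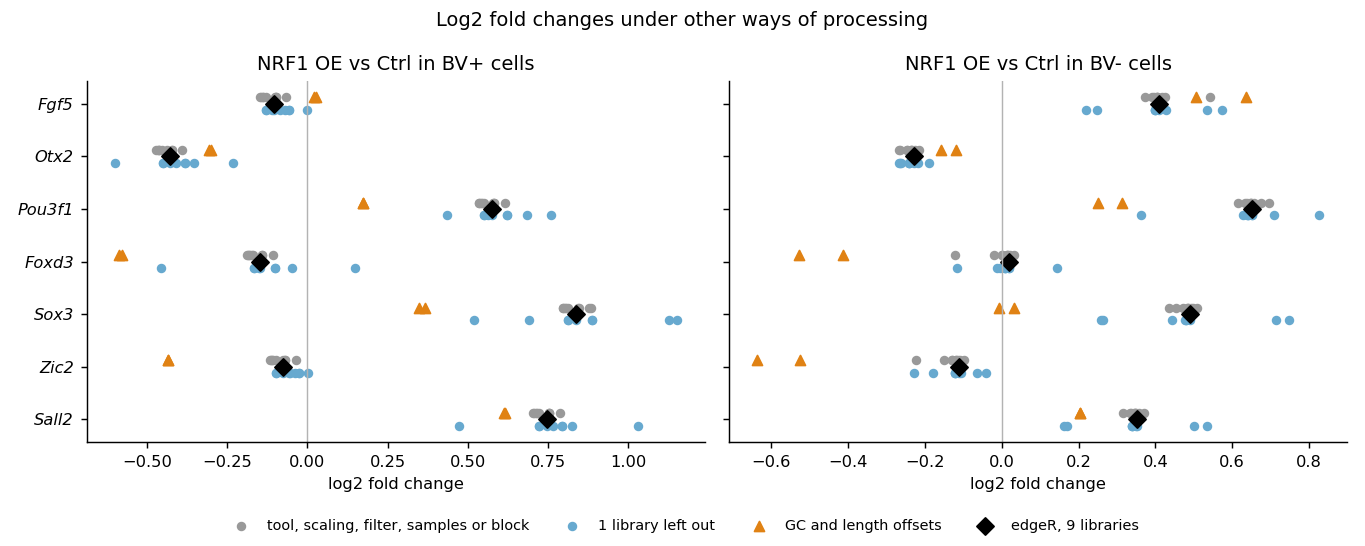
Log2 fold change of NRF1 OE against Ctrl for each epiblast marker under other ways of processing, in BV+ cells (left) and BV- cells (right), where diamonds give the edgeR fit of the 9 libraries, triangles the GC and length offsets, blue points fits without 1 library and grey points the remaining alternatives. The triangles of Pou3f1, Foxd3, Sox3 and Zic2 lie to the left of the diamonds in both panels.

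BV+ and BV- cells were compared next, within each arm, to ask how epiblast genes divided between the sorted populations. With NRF1 OE, Sall2 rose and Otx2 fell in BV+ cells relative to BV- cells, and the other 5 markers did not pass the test. This makes 1 of 7 higher and 1 of 7 lower, where 9.9% of all genes were higher and 3.85% lower. The count of 2 was 3 without BV- NRF1 OE replicate 1, 4 without BV- NRF1 OE replicate 2 and 1 without BV- NRF1 OE replicate 3. In these fits 3164, 2506 and 1515 of the 16903 genes tested were called.

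Sall2, at 176 and 124 CPM in BV+ cells with NRF1 OE, lay above the 67.2, 104 and 86.4 CPM of BV- cells without overlap. It was 1.75-fold higher (log2 fold change 0.80, 0.39 to 1.22, adjusted p = 0.0162). Without BV+ NRF1 OE replicate 1 the log2 fold change was 0.53 and the call was lost (adjusted p = 0.201).

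Otx2, at 66.5 and 89.2 CPM, lay below the 99.0, 106 and 110 CPM of BV- cells, again without overlap. It was at 0.74 of the BV- level (log2 fold change -0.43, -0.71 to -0.15, adjusted p = 0.0461). This call was just inside the threshold. Leaving out BV+ NRF1 OE replicate 1 gave -0.23 (adjusted p = 0.321), BV- NRF1 OE replicate 3 gave an adjusted p of 0.168, and leaving out any 1 of the 4 Ctrl libraries, which enter this comparison only through the shared scaling and spread, gave adjusted p from 0.101 to 0.107.

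Among the markers that did not pass, Foxd3 had a log2 fold change of -0.55 (-0.98 to -0.12, adjusted p = 0.0881), with 18.1 and 28.7 CPM in BV+ cells against 28.1, 34.4 and 40.2 CPM in BV- cells. Sox3 stood at 0.60 (0.01 to 1.20, adjusted p = 0.169) and Pou3f1 at 0.46 (0.02 to 0.90, adjusted p = 0.157). The BV+ and BV- libraries overlapped for these 3 genes. Foxd3 was at -0.26 without BV+ NRF1 OE replicate 1 and at -0.87 without replicate 2, and Sox3 ran from 0.28 to 0.91 without the same libraries. Each of these fits left 1 library in the BV+ NRF1 OE group. Sox3 (0.60, adjusted p = 0.032) and Pou3f1 (0.43, adjusted p = 0.0318) passed with GC and length offsets, and they passed at 0.84 and 0.76 without BV- NRF1 OE replicate 2 (adjusted p = 0.0225 and 0.000817). Fgf5 and Zic2 had log2 fold changes of -0.042 and 0.028 (adjusted p = 0.903 and 0.906).

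With Ctrl, none of the 7 markers was called between BV+ and BV- cells (edgeR, adjusted p). At an unadjusted p under 0.05 there were 1314 of the 16903 genes tested and 2 of 7 markers (Fgf5 and Pou3f1). Far fewer genes were called here, 1.1% higher and 0.0237% lower. Fgf5 was at 16.3 and 17.7 CPM in BV+ cells against 10.8 and 13.6 CPM in BV- cells (log2 fold change 0.47, adjusted p = 0.538). Pou3f1 was at 24.4 and 22.4 CPM against 16.2 and 16.0 CPM, with little spread in either group (0.54, adjusted p = 0.577). Sall2 was at 91.1 and 87.7 CPM against 58.7 and 75.8 CPM (0.41, adjusted p = 0.729). For these 3 genes both BV+ libraries lay above both BV- libraries, although none passed the test. How many of all genes had groups without overlap was not counted, here or in the other comparisons.

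Otx2 and Foxd3 had the opposite order with Ctrl. Otx2 was at 103 and 107 CPM in BV+ and 121 and 125 CPM in BV- cells (-0.23, adjusted p = 0.815), and Foxd3 at 26.8 and 25.0 CPM against 34.0 and 33.5 CPM (-0.38, adjusted p = 0.764). Sox3, at 0.26 (adjusted p = 0.987), and Zic2, at -0.0078 (adjusted p = 1.0), had overlapping groups. When the fit used only the 4 Ctrl libraries, Fgf5, Pou3f1, Foxd3 and Sall2 passed the test (4 of 7), and DESeq2 called Pou3f1 and Sall2 on those libraries and 0 of 7 in a fit of all 4 groups. Of the 16903 genes tested, 856 were called by edgeR on the 4 Ctrl libraries. DESeq2 called 490 on those libraries and 303 in the fit of all 4 groups.

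**Figure D4:**
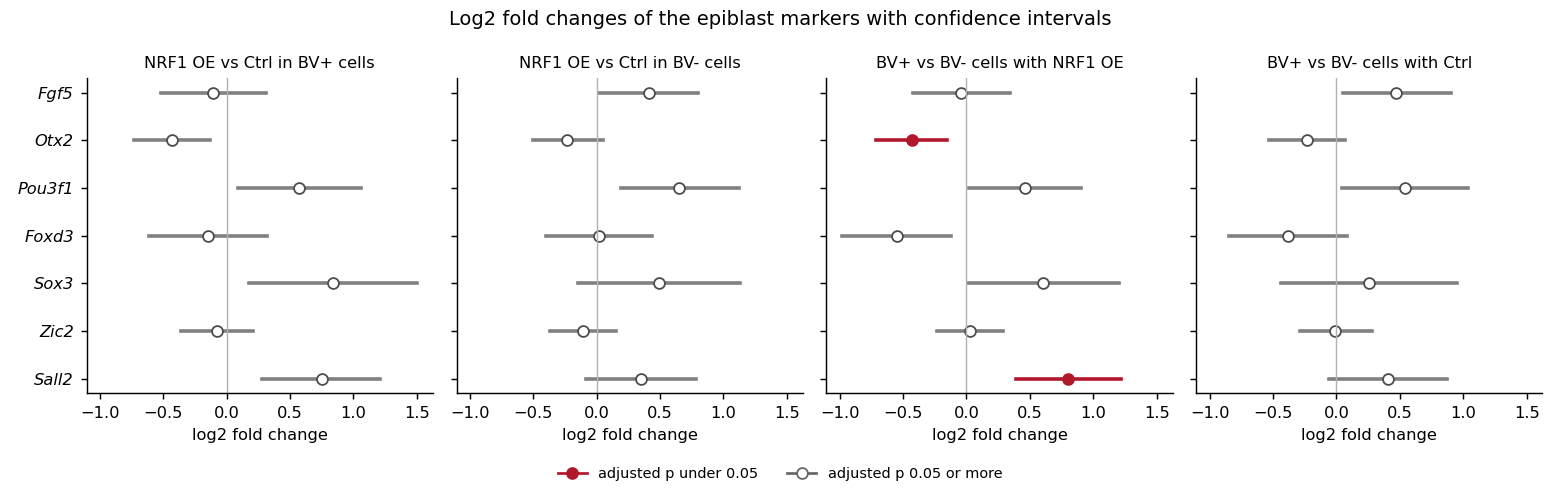
Log2 fold change of each epiblast marker (point) with its 95% interval (line) in 4 comparisons, filled and red where the adjusted p was under 0.05. Only Otx2 (-0.43) and Sall2 (0.80) between BV+ and BV- cells with NRF1 OE are filled.

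The 7 markers did not vary as one block over the 9 libraries. Log2 CPM of Sall2 and Sox3 had a Pearson correlation of 0.927, Pou3f1 and Sall2 of 0.917 and Pou3f1 and Sox3 of 0.874. Otx2 and Foxd3 went together (0.814), and Otx2 ran against Sall2 (-0.861), Pou3f1 (-0.782) and Sox3 (-0.727). Fgf5 was closest to Pou3f1 (0.628), and the strongest correlation of Zic2 with another marker was -0.408, with Fgf5. These are descriptions over 9 libraries in 4 groups, which share their depth and their trend over GC content.

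Among 14375 genes with a mean of at least 1 CPM, the genes most like Sall2 over the 9 libraries were Vps45, Mdfi and Bin1 (Pearson r from 0.992 to 0.993). Sox3 was most like Lamb2 and Fam171a2 (both 0.983) and Ier5l (0.974), and Pou3f1 was most like Arpin (0.985), Megf6 (0.971) and Dtx4 (0.967). For Otx2 these were Gm4971 (0.984), Mthfd2 (0.978) and Orc1 (0.977), and for Foxd3 they included Heatr3 (0.992) and Slc35b4 (0.973). Zic2 was most like Myc (0.952), Rassf2 (0.906) and Chn2 (0.901). Fgf5 was most like 4933412E12Rik (0.898), Ttc39c (0.893) and Arl5c (0.892). No member was among the 3 genes most like another member, and ranking by Spearman's rho kept 5 of the 21 genes.

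The wider set of formative and primed genes held 19 other genes, all tested. In BV+ cells with NRF1 OE against Ctrl 2 were called higher and 1 lower. Tead2 (log2 fold change 0.71, adjusted p = 0.0406), a transcription factor of the TEAD family, and Cdh2 (0.69, adjusted p = 0.0376), which encodes N-cadherin, were those that rose. The remaining 16 did not pass, and the median log2 fold change was 0.32 against 0.036 over all genes. With GC and length offsets 11 of 19 were called, 6 higher and 5 lower, and none was without BV- NRF1 OE replicate 3. Of the 16903 genes tested, 1496 were higher and 634 lower with the offsets, and 481 higher and 192 lower without that library. In BV- cells only Utf1 (0.46, adjusted p = 0.0354), a chromatin-associated factor of pluripotent cells, was called, and with GC and length offsets it was at -0.04 (adjusted p = 0.802). Without BV- NRF1 OE replicate 1 the counts were 6 higher and 1 lower of the 19, where 2993 of the 16903 genes tested were higher and 2836 lower. Tead2 in BV+ cells was at 0.40 with those offsets and still passed (adjusted p = 0.0276).

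The NRF1 OE calls in this and the other gene lists rested on few libraries, as did those over all genes. Leaving out any 1 BV+ library left a group with a single library. NRF1 OE calls in BV+ cells remained without BV+ NRF1 OE replicate 2. They were lost over all genes, and not only in the lists, without BV+ NRF1 OE replicate 1 or either BV+ Ctrl library. In BV- cells the calls of nearly all genes were lost without any 1 of the 4 Ctrl libraries. Without BV- NRF1 OE replicate 3, 1 PGC gene of the lists was called in BV- cells, where 27 of all genes were higher and 8 lower. At an unadjusted p under 0.05, edgeR found 6606 of the 16903 genes tested for NRF1 OE in BV- cells and 1314 between populations with Ctrl. The counts of list genes at that threshold are to be read beside these.

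Between the sorted populations with NRF1 OE, 5 of 19 were higher and 1 was lower in BV+ than in BV- cells, and leaving out any 1 library gave 5 or 6 higher and 1 to 3 lower. The largest differences were those of Sox11 (log2 fold change 1.88, adjusted p = 2.56e-05), a SOX factor of neural progenitors, Cdh2 (1.67, adjusted p = 3.71e-05), Fgf8 (1.65, adjusted p = 0.00769), a secreted ligand of the streak, and Lin28b (1.63, adjusted p = 0.000124), which blocks let-7 maturation. Sox11 had group means of 89.1 CPM in BV+ and 24.1 CPM in BV- cells with NRF1 OE. With Ctrl, Sox11 (1.10, adjusted p = 0.0166), Cdh2 (1.02, adjusted p = 0.0183) and Lin28b (0.95, adjusted p = 0.049) were higher in BV+ cells and 0 of 19 were lower, but none was called when any 1 of the 4 Ctrl libraries was left out, and Sox11 was at 0.96 (adjusted p = 0.0503) with GC and length offsets. None of the 19 was called for a difference between the NRF1 OE effects of BV+ and BV- cells (3 at an unadjusted p under 0.05, and 0 by DESeq2).

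**Figure D5:**
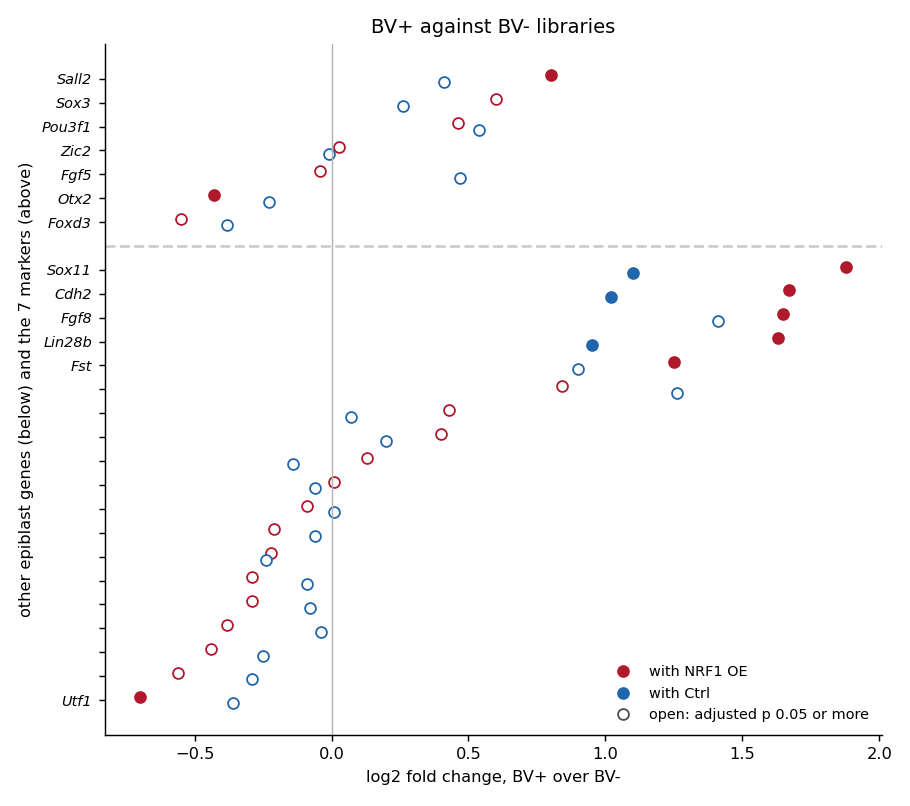
Log2 fold change of BV+ over BV- cells for the 7 epiblast markers (above the dashed line) and 19 other formative and primed genes (below), with NRF1 OE in red and Ctrl in blue, and filled points where the adjusted p was under 0.05. Below the line, genes with a filled point are labelled. Sox11, Cdh2 and Lin28b are filled in both arms, whereas among the 7 markers only Sall2 and Otx2 are filled, both with NRF1 OE.

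Of 19 paralogs of the markers, 13 were tested, and Fgf6, Crx, Pou3f4 and Zic4 had at most 3 counts in any library. With NRF1 OE against Ctrl 1 was called in BV+ cells, lower with NRF1 OE, and none in BV- cells (5 at an unadjusted p under 0.05, and 1 by DESeq2), and Sox1 was the only one called between the populations, higher in BV+ cells with NRF1 OE (log2 fold change 0.93, adjusted p = 0.00493). Sox2, the SOX paralog shared with the core pluripotency genes, was not called in any comparison, and Pou5f1 was lower in BV+ than BV- cells with NRF1 OE (-0.52, adjusted p = 0.00712, and -0.32, adjusted p = 0.0492, with GC and length offsets). The Sox1 and Pou5f1 calls were lost without BV+ NRF1 OE replicate 1, and that of Pou5f1 also without BV- NRF1 OE replicate 3.

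Fgf5 signals through FGF receptors and the ERK pathway, and 13 receptor and feedback genes were tested. Spry4, a feedback inhibitor, fell with NRF1 OE in BV+ cells (-0.72, adjusted p = 0.0159) and in BV- cells (-0.49, adjusted p = 0.0327). Spry1, another such inhibitor, rose in BV+ cells (0.65, adjusted p = 0.0412). In BV- cells the phosphatase gene Dusp4 rose (0.39, adjusted p = 0.0445) and Spred1 fell (-0.71, adjusted p = 0.0317). These 3 calls were lost with GC and length offsets, at 0.35 for Spry1 (adjusted p = 0.0517), 0.02 for Dusp4 (adjusted p = 0.889) and -0.19 for Spred1 (adjusted p = 0.136). Between BV+ and BV- cells with NRF1 OE, 5 of 13 were higher and 2 lower, led by Spred1 (1.04, adjusted p = 0.000676), the transcription factor gene Etv4 (-0.66, adjusted p = 0.00968), Spry1 (0.56, adjusted p = 0.0312) and the receptor gene Fgfr2 (0.49, adjusted p = 0.0481), and the counts were 1 and 0 without BV+ NRF1 OE replicate 1 and 2 and 1 without BV- NRF1 OE replicate 3. With Ctrl none of the 13 was called by edgeR (5 at an unadjusted p under 0.05, and 0 or 1 by DESeq2).

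Naive pluripotency genes, which the epiblast programme replaces, numbered 13. Their summed level was 2200 to 2460 CPM in BV+ cells with NRF1 OE and 2570 to 2700 CPM with Ctrl. It was 2900 to 3080 CPM in BV- cells with NRF1 OE and 2800 to 2900 CPM with Ctrl. The core genes Pou5f1 and Sox2 summed to between 1280 and 1480 CPM in BV+ libraries and to between 1590 and 1910 CPM in BV- libraries. Zfp42 (Rex1) fell with NRF1 OE in BV+ cells (-0.67, adjusted p = 0.0404) and in BV- cells (-0.53, adjusted p = 0.0428), and so did Klf4 (-0.67, adjusted p = 0.0472, and -0.63, adjusted p = 0.0377). In BV- cells Tbx3 (-0.84, adjusted p = 0.0317) also fell, and 2 genes rose, among them Klf2 (0.39, adjusted p = 0.0409). With NRF1 OE, 4 genes, among them Dppa5a (-0.55, adjusted p = 0.00218), Klf2 (-0.46, adjusted p = 0.0189) and Tcl1 (-0.45, adjusted p = 0.0108), were lower and Tbx3 (1.15, adjusted p = 0.000294) higher in BV+ than in BV- cells. Offsets for GC and length left none of the naive genes higher with NRF1 OE in BV- cells, with Klf2 at -0.06 (adjusted p = 0.795), and between populations they moved Dppa5a to -0.31 (adjusted p = 0.0223) and Tcl1 to -0.24 (adjusted p = 0.0655). Between the populations with NRF1 OE, only 1 naive gene was called lower without BV- NRF1 OE replicate 3. Fewer were also called lower there without BV+ NRF1 OE replicate 1, which left 1 library in that group.

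Neuroectoderm markers, and primitive streak and mesoderm markers, had their highest summed levels in BV+ cells with NRF1 OE, where the means of Sall2, Pou3f1 and Sox3 were also highest. The summed level of 13 neuroectoderm markers was 202 to 256 CPM in BV+ cells with NRF1 OE, 136 to 142 CPM in BV+ cells with Ctrl, 106 to 144 CPM in BV- cells with NRF1 OE and 105 to 110 CPM in BV- cells with Ctrl. Of the 10 tested, 3 rose with NRF1 OE in BV+ cells, Nes (1.60, adjusted p = 0.0134) and Lhx2 (1.54, adjusted p = 0.0204) among them, and none was called with NRF1 OE in BV- cells (3 at an unadjusted p under 0.05, and 0 or 1 by DESeq2). Between BV+ and BV- cells with NRF1 OE 6 were higher, led by Nes (2.96, adjusted p = 1.92e-05), Olig2 (2.48, adjusted p = 0.0112), Six3 (1.91, adjusted p = 0.002) and Lhx2 (1.70, adjusted p = 0.00164). With Ctrl edgeR called only Nes higher in BV+ cells (1.94, adjusted p = 0.00869), but 7 of the 10 had an unadjusted p under 0.05. DESeq2 called 3 or 4 there, and 3 were called with GC and length offsets. Neurog2 had at most 3 counts in any library, and no marker was at 0 throughout. The 9 primitive streak and mesoderm markers summed to 30.5 to 43.9 CPM in BV+ cells with NRF1 OE and to 19.2 to 22.2 CPM with Ctrl, and to 9.65 to 11.0 CPM in BV- cells with NRF1 OE and 12.5 to 13.8 CPM with Ctrl, and Mesp1 was at 3 counts or fewer. Kdr rose with NRF1 OE in BV+ cells (1.49, adjusted p = 0.0125), and Hand1 (4.11, adjusted p = 0.000323), Kdr (3.73, adjusted p = 3.54e-06) and Msx1 (3.16, adjusted p = 0.00038) were higher in BV+ than BV- cells with NRF1 OE. With Ctrl 1 of the 7 tested was called higher in BV+ cells and 5 of 7 had an unadjusted p under 0.05 (edgeR). The median log2 fold change between populations was 1.48 with Ctrl and 2.07 with NRF1 OE. The 6 neural crest markers summed to between 7.29 and 12.8 CPM, with overlapping ranges in the arms of BV+ cells, and with Pax3 (2.54, adjusted p = 0.00601) and Sox9 (2.70, adjusted p = 0.0292) higher in BV+ than BV- cells with NRF1 OE, neither of which was called without BV+ NRF1 OE replicate 1. The 8 endoderm markers summed to between 19.7 and 32.7 CPM, with Foxa1 lower for NRF1 OE in BV+ cells (-2.02, adjusted p = 0.0411), Gata6 in BV- cells (-1.08, adjusted p = 0.0419) and Afp in BV+ against BV- cells with NRF1 OE (-1.56, adjusted p = 0.0234). The part of these cells in the levels of the 7 markers was not tested.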

How the data were processed

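RNA-seq libraries of BV+ and BV- cells with NRF1 OE or Ctrl were grouped by their sample titles. The authors trimmed reads with Cutadapt, aligned them with HISAT2 2.0.1 against GRCm39 and obtained counts per Ensembl gene with HTSeq 0.6.1 (versions per the submitters' processing notes). Whether strand was used in counting is not given in the sources used here. The authors deposited a raw count per gene, not normalized, and FPKM calculated from it, which served here only to compare levels between genes.

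Counts of the 9 libraries were fitted in R 4.3.3 with edgeR 4.0.16 (filterByExpr, TMM, 1 term per group, quasi-likelihood F test, two-sided, Benjamini-Hochberg adjustment over 16903 genes, call at an adjusted p under 0.05). DESeq2 1.42.0, the tool of the study's methods, was an alternative. SE and 95% intervals came from the F statistic, with 11.4 residual degrees of freedom in the median. Log2 CPM for correlations used a prior count of 2. Libraries held 13702162 to 19625460 counts, and the counting error stated for Sox3 covers counting alone. Transcript GC content and length came from a GRCm38 annotation, matched by identifier for 98.6% of the genes tested, and no coordinates of the deposited genes are printed because the builds differ.

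The members and gene lists were chosen with earlier results of these data known. All 7 markers are named throughout. From each list, genes called in a comparison are named, up to the 4 with the largest change, and likeness names the 3 genes with the highest Pearson correlation, except that a few genes under these rules are not reported here. Alternatives changed the tool, the scaling, the filter on low counts, the libraries fitted, the replicate block, GC and length offsets (a spline with 5 degrees of freedom), and left out each library. For the lists they were added after seeing the data. The procedures were tested on simulated counts. Figures used matplotlib 3.10.9.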

Additional observations from a re-analysis of the deposited data

How the results depend on the processing

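Of the 7 epiblast markers, the number called for NRF1 OE against Ctrl in BV+ cells (0) was 4 with DESeq2 on the BV+ libraries, with no filter and with only the groups compared, 1 with DESeq2 on 4 groups, with a mean of 10 counts as the filter and with GC and length offsets, and 0 to 4 without 1 library. In BV- cells it (0) was 1 with DESeq2 on 4 groups, upper quartile factors, no filter and GC and length offsets, and 0 to 1 without 1 library. Between BV+ and BV- cells with NRF1 OE it (2) was 1 with DESeq2 on the pair of groups, library size alone, a mean of 10 counts and only the groups compared, 5 with no filter, 4 with GC and length offsets, 0 with the replicate block (Sall2 adjusted p = 0.0811, Otx2 0.156) and 0 to 4 without 1 library. With Ctrl it (0) was 2 with DESeq2 on the pair, 4 with only the groups compared and 0 to 1 without 1 library. The replicate block changed no other marker count. The deviations of same-numbered libraries correlated at 0.309 and 0.348 between the BV- groups and at -0.428 to -0.0288 between the other pairs of groups, and as the labels tie the numbers to nothing they were not taken as pairs. With the block 3 genes were called for NRF1 OE in BV+ cells, 0 in BV- cells, 121 for BV+ against BV- cells with Ctrl, where the pairing with the numbers crossed, added after seeing the data, also gave 121, and 1064 with NRF1 OE.

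Over all genes, the number called for NRF1 OE in BV+ cells (1355) was 2106 and 3443 with DESeq2 on 4 groups and on the pair, 3440 with no filter, 4380 with only the groups compared, 2130 with GC and length offsets and 0 to 4947 without 1 library. In BV- cells (2910) it was 4392 with no filter, 0 with only the groups compared, 851 with GC and length offsets, 3 with those and the replicate block, and 0 to 5829 without 1 library. For BV+ against BV- cells with Ctrl (190) it was 303 and 490 with DESeq2, 529 with no filter, 856 with only the groups compared, 310 with GC and length offsets and 20 to 484 without 1 library, and with NRF1 OE (2325) it was 1369 with DESeq2 on the pair, 1265 with only the groups compared and 796 to 3164 without 1 library. For the difference of the NRF1 OE effect (0) it was 23 with DESeq2, 108 with no filter, 1 with the replicate block and GC and length offsets and 0 to 33 without 1 library. The cause of these changes was not tested. Spearman in place of Pearson kept 5 of the 21 genes most like the markers.

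None of the log2 fold changes that took the other sign had passed the test, and the largest of them was 0.49 (Sox3 in BV- cells). With GC and length offsets Fgf5 for NRF1 OE in BV+ cells was 0.021 (0.028 with the replicate block as well), Foxd3 in BV- cells -0.41 (-0.53 with the block), Zic2 between populations with Ctrl 0.0066 (0.0062 with the block), and Fgf5 between populations with NRF1 OE 0.0083. Sox3 in BV- cells was -0.0078 with block and offsets. Foxd3 in BV- cells was -0.019 with library size alone and -0.12 with the block. Zic2 with Ctrl was 0.00024 with DESeq2 on the pair, 0.018 with library size alone, 0.0018 with upper quartile factors, 0.0097 with no filter and 0.012 with only the groups compared. With upper quartile factors Zic2 was -0.0085 between populations with NRF1 OE and -0.010 for the difference of effects. Without 1 library the ranges were, for NRF1 OE in BV+ cells, -0.46 to 0.15 for Foxd3 and -0.098 to 0.0015 for Zic2, for BV- cells -0.12 to 0.14 for Foxd3, with Ctrl -0.0092 to 0.50 for Sox3 and -0.086 to 0.026 for Zic2, with NRF1 OE -0.16 to 0.15 for Fgf5 and -0.043 to 0.15 for Zic2, and for the difference of effects -0.25 to 0.19 for Pou3f1, -0.47 to 0.13 for Foxd3 and -0.035 to 0.15 for Zic2. Of 686 alternative log2 fold changes, 596 kept direction and side of the threshold, but most belonged to results that had not passed the test and so had no call to lose. The 2 calls were those between BV+ and BV- cells with NRF1 OE. Sall2 was called in 18 of 20 alternatives, and Otx2 in only 9 of 20. With 2 libraries in most groups, Sox3 at 76 to 287 counts is the marker that depth limits most.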
